A study of Mus musculus with 6 samples.

Results

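The mouse collagen chain genes were described in bulk RNA sequencing of liver, comparing 3 libraries of the genotype Control with 3 of the genotype Cyr61KO, written Cyr61 KO here. Every gene whose symbol has the form of a collagen chain (Col, a type number, the letter a and a chain number) was taken, without regard to its values. This gave 44 of the 24411 genes in the tables. By the usual collagen subfamilies they were 11 fibrillar, 6 basement membrane, 3 network, 9 FACIT, 6 beaded filament, 1 anchoring fibril, 4 transmembrane and 2 multiplexin chains, and 2 chains of no such class. Both genotypes came from males of the strain Cyr61fl/fl, which were 24 weeks old after 12 weeks on a diet that models NASH, fatty liver disease with inflammation. The labels do not say in which cells, or by what means, floxed Cyr61 was removed, nor whether each library came from a separate mouse. The p-values therefore measure the spread between these libraries, which may be technical. The series title places Cyr61, a secreted matricellular protein, among signals of monocyte-derived macrophages in liver fibrosis.

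Collagens are secreted proteins in which 3 alpha chains wind into a triple helix, as copies of 1 chain or as a mix of chains from several genes. Fibrillar chains are trimmed outside the cell and assemble into the banded fibres of scar, FACIT chains decorate those fibres, and basement membrane and other network chains form sheets under epithelium and around vessels. In fibrotic liver, activated hepatic stellate cells and portal fibroblasts are the main known makers of fibrillar collagen, whereas hepatocytes make the multiplexin Col18a1, the source of endostatin.

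Expression is given as CPM, read counts per gene relative to the TMM-scaled library size. The targeted gene, Cyr61, had 3.77, 2.66 and 3.14 CPM in knockout replicates 1, 2 and 3, against 15.6, 32.4 and 27.8 CPM in those of the control. The groups did not overlap, with a log2 fold change of -2.98 ± 0.32 (SE, edgeR adjusted p = 0.0103). The libraries held 21032878 to 40377742 counts in genes, the fewest in control replicate 2. That library stood apart in liver cell markers, with hepatocyte markers summing to 38050 CPM against 89240 CPM or more in the other 5 libraries and cholangiocyte markers to 1433 CPM against at most 277.9 CPM. It was the highest of the 3 controls in 29 of the 31 collagen genes tested, against 43.9% of all genes tested. Where leaving that library out turned the sign of a collagen fold change or moved it by over 1.5 times, the value without it is given beside it.

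Of the 44 genes, 31 had enough counts to be tested among 13563 genes in all. Genes were called at an adjusted p below 0.05 by edgeR over all genes tested. Col1a1, Col1a2, Col3a1, Col5a2, Col6a2 and Col16a1 fell in Cyr61 KO livers, and Col13a1 rose. These 6 lower and 1 higher of 31 stand beside 2.37% of all tested genes called lower and 1.07% called higher. The 3 knockout values lay below all 3 control values in 14 collagen genes, where 17.9% of all tested genes did so, and above them in 2, where 17.3% did. The 15 other tested collagen genes overlapped between the groups. The median log2 fold change of the 31 genes was -0.88, beside -0.03 for all genes tested. That median includes control replicate 2, the highest control in 29 of the 31. Without that library many of the fold changes were smaller in size or turned positive, as given below. Only 1 of the 31, Col23a1, reached the level of the low-count filter (0.287 CPM) in control libraries alone. In a bulk sample, fewer cells of a type and less RNA per cell cannot be told apart.

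**Figure D1:**
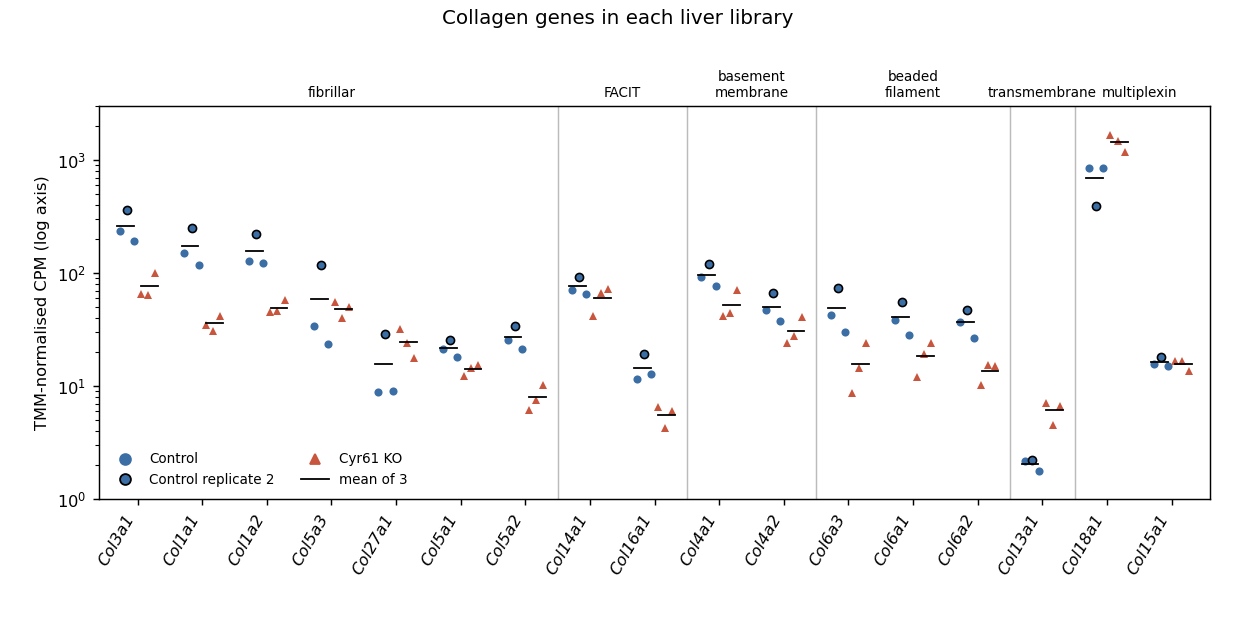
TMM-normalised CPM, on a log axis, of collagen genes in each of the 6 libraries; dots are control and triangles Cyr61 KO libraries, outlined dots are control replicate 2, and lines are means of 3. Col1a1 lies at 116.7 to 252.2 CPM in controls and 30.79 to 42.05 CPM in knockouts, while Col18a1, the most abundant, lies at 391.1 to 848.8 CPM and 1187 to 1674 CPM.

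The main fibril chains of scar gave the clearest decreases. Col1a1, the larger contributor to type I collagen (chromosome 11, 94936224 to 94953042, plus strand), was measured at 150.1, 252.2 and 116.7 CPM in controls 1, 2 and 3 and at 34.6, 30.8 and 42.05 CPM in knockouts 1, 2 and 3. The highest knockout value was thus well below the lowest control. On the log2 scale Col1a1 fell by 2.27 ± 0.32 (adjusted p = 0.0184), so that the knockout mean was 20.7% of the control mean. Its partner chain Col1a2 (chromosome 6, 4504814 to 4541544, plus strand) was at 128.3, 220.8 and 123.5 CPM in controls and at 44.9, 46.2 and 57.6 CPM in knockouts. The groups were again apart, and Col1a2 fell by 1.67 ± 0.29 (adjusted p = 0.0272).

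Col3a1, which forms type III homotrimers found alongside type I in fibres (chromosome 1, 45311538 to 45349706, plus strand), was at 235.1, 364.4 and 190.8 CPM in controls and at 65.7, 63.9 and 101.1 CPM in knockouts. It fell by 1.78 ± 0.33 (adjusted p = 0.0329), with every knockout library below every control. Col5a2, a chain of the type V collagen that starts fibrils, lies tail to tail with Col3a1 at a distance of 24.6 kb (chromosome 1, 45374321 to 45503282, minus strand). It was at 25.6, 34.2 and 21.3 CPM in controls and at 6.21, 7.59 and 10.2 CPM in knockouts. Col5a2 fell by 1.76 ± 0.27 (adjusted p = 0.0237), again with no overlap.

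The other type V chains did not pass the edgeR test. Col5a1, its usual majority chain, was at 21.1, 25.75 and 17.95 CPM in controls and at 12.4, 14.4 and 15.5 CPM in knockouts. The groups did not overlap, but the log2 fold change was only -0.61 ± 0.21 (adjusted p = 0.116). Among other tests, limma voom called Col5a1 (adjusted p = 0.0296) and DESeq2 did not (0.0828). Col5a3, a minor chain, was at 33.9, 117.6 and 23.8 CPM in controls and at 55.5, 39.8 and 49.7 CPM in knockouts. Control 2 was here above, and the other 2 controls below, every knockout library. The log2 fold change of Col5a3 was -0.27 ± 0.52 (adjusted p = 0.757), and it was 0.77 without control replicate 2. Col27a1, a fibrillar chain best known from cartilage, was at 8.79, 29.2 and 9.004 CPM in controls and 31.8, 24.2 and 17.6 CPM in knockouts. Control 2 lay within the knockout range and the other 2 controls below it. Its log2 fold change was 0.65 ± 0.47 (adjusted p = 0.386), and without control replicate 2 it passed at 1.49 (adjusted p = 0.0494). With all libraries, limma voom called Col27a1 (adjusted p = 0.00185) and DESeq2 did not (0.356). The remaining tested fibrillar chain, Col11a2, lay at 1.549 CPM or less in every library, with a log2 fold change of -0.43, which turned to 0.44 without control replicate 2. The 8 tested fibrillar chains had a median of -1.14.

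Promoter sequence is shown for 5 genes whose values the comparison turns on, read from RefSeq windows on GRCm38.p6 that end at the annotated start. Windows were matched for 35 of the 44 genes, Col1a1 not among them. Stretches inside annotated exons were left out. The Col1a2 stretch thus runs from -248 to -126 and that of Col18a1 from -250 to -19, counted from the start. The CCAAT match of the Col1a2 window, beginning 109 bases before the start, lies in the part left out. Capitals mark the TATA box letters TATAAA, the letters CCAAT of the CCAAT box, and the letters GGGCGG of the GC box bound by Sp-family factors, on either strand. The first 3 belong to genes that fell, the fourth to Col13a1, which rose, and the last to the distal start of Col18a1.
Col3a1, chr1:45311288-45311537, plus strand: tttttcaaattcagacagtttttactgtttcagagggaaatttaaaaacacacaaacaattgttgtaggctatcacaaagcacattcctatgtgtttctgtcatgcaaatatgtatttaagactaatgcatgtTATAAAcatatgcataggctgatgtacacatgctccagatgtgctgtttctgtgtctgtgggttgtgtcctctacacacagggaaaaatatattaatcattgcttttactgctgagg
Col1a2, chr6:4505370-4505492, plus strand: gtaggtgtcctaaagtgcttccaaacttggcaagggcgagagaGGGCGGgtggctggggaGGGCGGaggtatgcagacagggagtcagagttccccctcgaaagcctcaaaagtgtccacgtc
Col6a2, chr10:76623631-76623880, minus strand: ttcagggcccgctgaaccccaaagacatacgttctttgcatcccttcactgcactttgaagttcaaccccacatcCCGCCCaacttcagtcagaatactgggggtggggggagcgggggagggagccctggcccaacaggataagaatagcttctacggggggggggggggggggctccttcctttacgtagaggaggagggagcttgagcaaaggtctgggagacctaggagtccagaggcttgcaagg
Col13a1, chr10:61979109-61979358, minus strand: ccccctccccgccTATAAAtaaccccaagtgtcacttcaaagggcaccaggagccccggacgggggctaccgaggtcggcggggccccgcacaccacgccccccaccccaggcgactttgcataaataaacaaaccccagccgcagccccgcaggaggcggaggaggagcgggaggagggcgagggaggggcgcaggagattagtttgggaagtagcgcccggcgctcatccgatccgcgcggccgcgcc
Col18a1, chr10:77166549-77166780, minus strand: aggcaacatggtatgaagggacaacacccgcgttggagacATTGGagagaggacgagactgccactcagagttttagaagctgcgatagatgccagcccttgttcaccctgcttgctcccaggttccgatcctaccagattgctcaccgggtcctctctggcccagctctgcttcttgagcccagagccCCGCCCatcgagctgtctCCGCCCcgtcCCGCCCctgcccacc

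Col3a1 and Col13a1 both held TATAAA, beginning 117 and 237 bases before the start. The Col1a2 stretch held 2 matches to GGGCGG, and the Col18a1 stretch held 3, written as the reverse complement. Matches were also counted over whole windows of 250 bases, stretches inside annotated exons included. By that count GGGCGG was present in 32.7% of all 32851 windows, against 22 of the 38 collagen windows (57.9%). TATAAA was in 12.4% of all windows and 5 of the collagen windows (13.2%), and CCAAT in 33.8% and 13 (34.2%). No window was tested, 1 gene can have several, and those of Col6a2 overlap. A match is only a description of the letters.

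No basement membrane chain passed the edgeR test, though all 6 were lower on average. Other tests did call some of them. DESeq2 called Col4a1 (adjusted p = 0.026) and Col4a5 (0.00404). limma voom called Col4a1 (0.0063), Col4a2 (0.0322) and Col4a5 (0.00967). Col4a1, which pairs with Col4a2 in the sheet collagen under vessels and epithelium, was at 92.95, 119.4 and 77.6 CPM in controls and at 42.1, 44.6 and 70.45 CPM in knockouts. The groups did not overlap, and the log2 fold change of Col4a1 was -0.88 ± 0.27 (adjusted p = 0.0925). Col4a2 starts head to head with it, the annotated genes sharing 22 bases of chromosome 8 on opposite strands. Col4a2 was at 47.0, 66.4 and 37.4 CPM in controls and at 24.2, 27.7 and 40.85 CPM in knockouts. Knockout 3 exceeded control 3 here, and the log2 fold change was -0.70 ± 0.28 (adjusted p = 0.156), or -0.43 without control replicate 2.

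The minor type IV chains were far less abundant. Col4a5, mutated in Alport syndrome, was at 5.39, 12.2 and 4.92 CPM in controls and at 1.90, 2.62 and 2.75 CPM in knockouts. Its log2 fold change was -1.63 ± 0.42 (adjusted p = 0.0654), with no overlap, and -1.06 without control replicate 2. Col4a6, Col4a3 and Col4a4 had log2 fold changes of -1.60, -1.37 and -0.74 with overlapping groups. Control 2 was the highest library for each of the 3, and without it the values were -0.93, -0.74 and -0.17. The median of the 6 chains was -1.13, beside -1.14 for the fibrillar chains, but the range was narrower (-1.63 to -0.70 against -2.27 to 0.65). Without control replicate 2 the medians were -0.71 and -0.88. The difference between the classes was not tested.

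**Figure D2:**
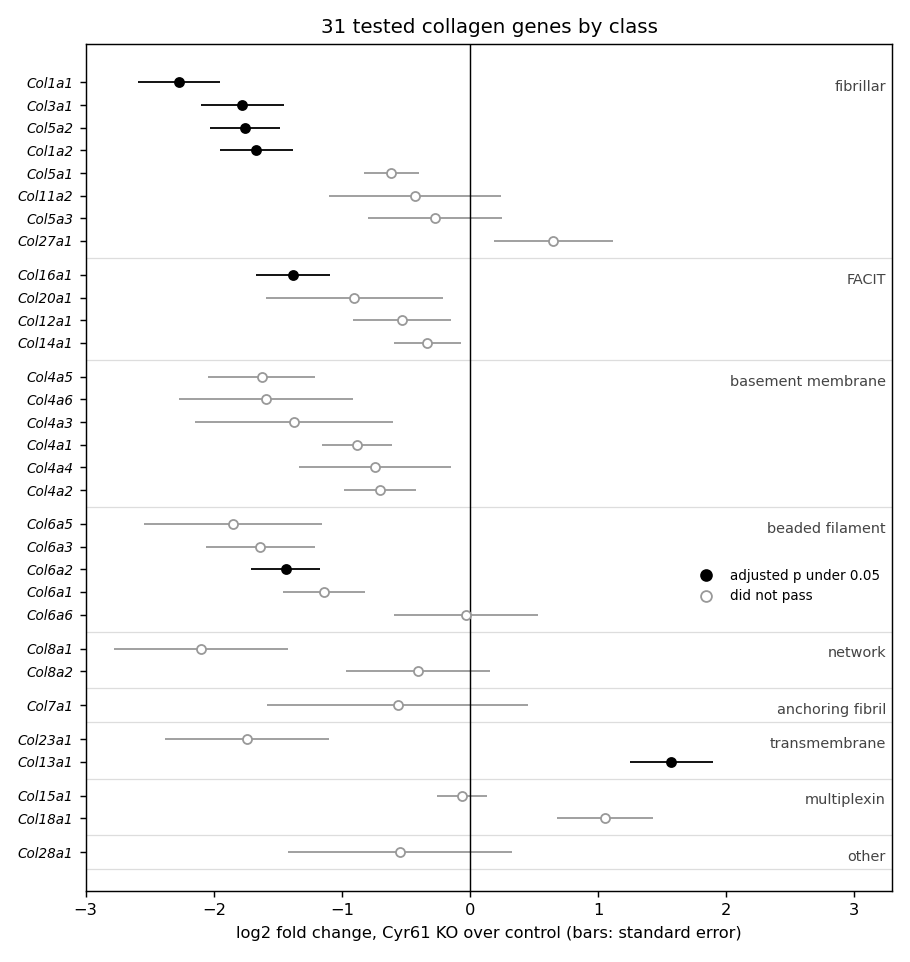
Log2 fold change (Cyr61 KO over control) of the 31 tested collagen genes by class, with bars of 1 standard error; filled points had an edgeR adjusted p under 0.05. Filled points on the lower side are 4 fibrillar chains, Col6a2 and Col16a1, and Col13a1 is the only one on the upper side.

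Of the network chains, Col8a1, a short chain of vessel walls, was at 1.66, 8.12 and 1.55 CPM in controls and at 0.802, 0.958 and 0.869 CPM in knockouts. All 3 knockouts were below all controls, but control 2 alone was far above the rest. The log2 fold change of Col8a1 was -2.10 ± 0.68 (adjusted p = 0.0999), and -0.85 without control replicate 2. With all libraries, DESeq2 called Col8a1 (adjusted p = 0.018) and limma voom did not (0.0842). Col8a2 was at -0.40 with overlapping groups, or -0.11 without control replicate 2, and the median of the pair went from -1.25 to -0.48. The chain of hypertrophic cartilage, Col10a1, had 0 counts in every library.

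The 4 tested FACIT chains gave 1 call. Col16a1, which associates with fibrils and microfibrils (chromosome 4, 130047840 to 130099283, plus strand), was at 11.7, 19.2 and 12.8 CPM in controls and at 6.48, 4.22 and 6.0 CPM in knockouts. The groups did not overlap, and Col16a1 fell by 1.38 ± 0.29 (adjusted p = 0.0427). Col14a1, the most abundant FACIT chain here and a binder of fibril surfaces, was at 71.3, 91.6 and 65.7 CPM in controls and at 41.9, 67.3 and 72.4 CPM in knockouts. Only knockout 1 was below all controls, and the log2 fold change was -0.33 ± 0.26 (adjusted p = 0.431), or -0.16 without control replicate 2. Col12a1, a related fibril-surface chain, had overlapping groups at -0.53 ± 0.38, and Col20a1 was at -0.90. The median of the 4 chains was -0.72. Without control replicate 2, where Col20a1 was highest, Col20a1 turned to 0.11 and the median to -0.26.

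Type VI collagen, the beaded filament of the space around cells, is built from Col6a1, Col6a2 and a longer chain such as Col6a3. Col6a2 (chromosome 10, 76595762 to 76623630, minus strand) was at 36.9, 46.7 and 26.9 CPM in controls and at 10.2, 15.3 and 15.2 CPM in knockouts. It fell by 1.44 ± 0.27 (adjusted p = 0.0334), with no overlap. Col6a1, which lies 85.2 kb away on the same strand, was at 38.2, 55.6 and 28.1 CPM in controls and at 12.1, 19.3 and 23.9 CPM in knockouts. It did not overlap either, but did not pass, at -1.14 ± 0.32 (adjusted p = 0.0789). Col6a3 was at 42.6, 74.1 and 30.4 CPM in controls and at 8.70, 14.4 and 24.1 CPM in knockouts. Its log2 fold change was larger than that of Col6a2 at -1.64, but so was its standard error of 0.43 (adjusted p = 0.0682). DESeq2 did call Col6a1 (adjusted p = 0.015) and Col6a3 (0.00318), as did limma voom (0.00934 and 0.00366). Col6a5 and Col6a6, alternatives to Col6a3, were at 2.203 CPM or less in every library, with log2 fold changes of -1.85 and -0.03. The highest Col6a5 value was that of control 2, and without it the fold changes were -1.08 and 0.13.

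The 2 genes whose knockout values all exceeded the controls were of other classes. Col13a1, a transmembrane collagen of cell contacts (chromosome 10, 61838236 to 61979108, minus strand), was at 2.16, 2.24 and 1.76 CPM in controls and at 7.16, 4.58 and 6.62 CPM in knockouts. It rose by 1.57 ± 0.32 on the log2 scale (adjusted p = 0.0427). This call was lost with any single library left out (adjusted p from 0.0519 without control 2 to 0.0968 without knockout 1 and 0.12 without knockout 2). Col18a1 (chromosome 10, 77052178 to 77166548, minus strand) was at 848.8, 391.1 and 846.4 CPM in controls and at 1674, 1473 and 1187 CPM in knockouts. Control 2 was the lowest library, as it was for hepatocyte markers. The log2 fold change of Col18a1 was 1.05 ± 0.38 (adjusted p = 0.122), and 0.80 without control replicate 2 (adjusted p = 0.113). DESeq2 and limma voom did call Col18a1 (adjusted p = 0.0161 and 0.0145). Its multiplexin relative Col15a1, a chain of vessel and muscle basement membrane zones, overlapped between the groups, at 15.7, 18.04 and 15.1 CPM in controls and 16.6, 16.5 and 13.7 CPM in knockouts (-0.06 ± 0.20, adjusted p = 0.854, and 0.04 without control replicate 2).

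Another 3 low genes complete the tested set. Col7a1, the anchoring fibril chain of skin, was at 0.140, 0.929 and 0.0928 CPM in controls and 0.356, 0.0355 and 0.364 CPM in knockouts. Col28a1 was at 0.337, 0.138 and 1.36 CPM in controls and 0.238, 0.780 and 0.252 CPM in knockouts. Both overlapped between the groups. Their log2 fold changes were -0.56 and -0.55, and 1.14 and -0.99 without control replicate 2. Col23a1, the other tested transmembrane chain, was below all controls in the knockouts at -1.74 (adjusted p = 0.129).

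The other 13 genes were not tested. Cartilage fibril chain Col2a1, Col10a1 and Col26a1 had 0 counts in all 6 libraries, where 3 counts, the limit that 0 allows, would be 0.0841 to 0.106 CPM. The 10 others had at most 55 counts in any library, the value of Col9a3 in control 2. Col9a3 had 16 and 4 counts in the other 2 controls and 5 in each knockout library, so it stood out in that library alone. Col24a1, a fibrillar chain whose gene lies 95.0 kb from Cyr61 on chromosome 3, had 3, 7 and 6 counts in controls and 5, 7 and 18 in knockouts.

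Summed over all 44 genes, collagen expression overlapped between the groups although its makeup differed. The sum was 1821 ± 155 CPM (SD, n = 3) in controls and 1933 ± 168 CPM in knockouts. Without Col18a1 the sum was 980.9, 1581 and 815.2 CPM in controls and 430.0, 452.8 and 580.8 CPM in knockouts, every knockout below every control. Fibrillar chains summed to 717.7 ± 288.7 CPM in controls and 258.2 ± 34.2 CPM in knockouts, and basement membrane chains to 158.3 ± 42.3 and 87.3 ± 25.5 CPM. FACIT chains went from 96.6 ± 20.2 to 69.4 ± 16.6 CPM, the least unequal of the 4 classes compared. The multiplexin pair made up 47.25, 20.74 and 51.85% of collagen CPM in controls and 80.35, 77.35 and 67.92% in knockouts. These sums are not independent of the single genes above and were not tested.

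**Figure D3:**
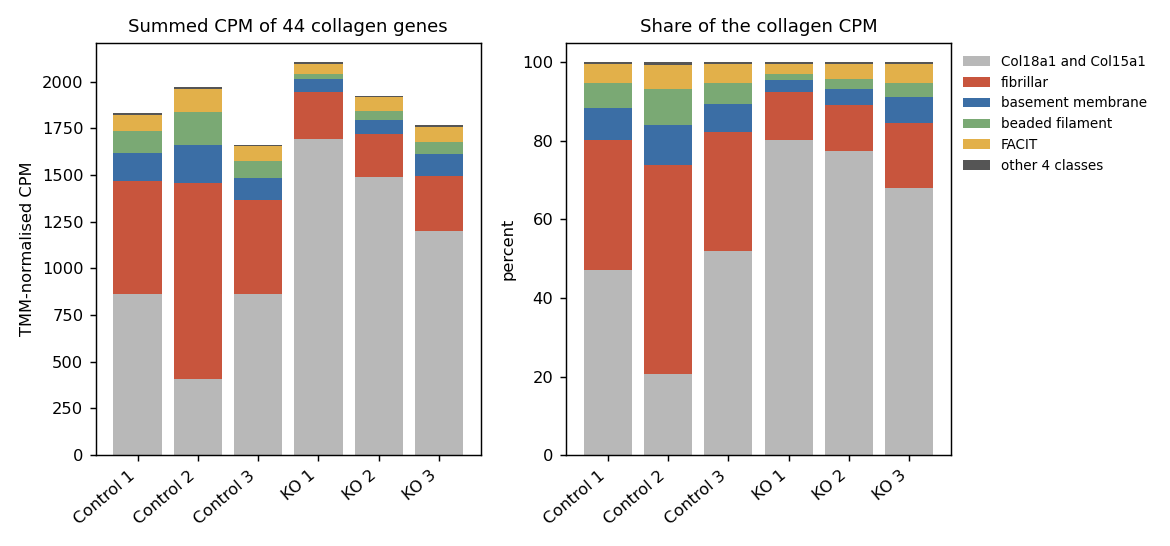
Summed TMM-normalised CPM of collagen genes in each library (one panel) and each class as a percent of the collagen total (the other), stacked by class. The fibrillar share averages 38.8% in controls and 13.5% in knockouts, and the share of Col18a1 and Col15a1 39.9% and 75.2%.

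RPKM is CPM per kilobase of exon, here of the union of all annotated exons, which can exceed the transcript made. That length was 9816 bases for Col3a1, 12426 for Col1a2, 6563 for Col1a1 and 7013 for Col14a1. Ranks between genes depend on it. By RPKM Col18a1 led in both groups, at a mean of 99.1 RPKM in controls and 206 RPKM in knockouts. In controls Col3a1 and Col1a1 came next, at 26.8 and 26.4 RPKM, which did not differ beyond their spread. In knockouts the means of Col14a1 and Col3a1 were 8.63 ± 2.33 and 7.83 ± 2.14 RPKM. Those of Col5a3 and Col4a1 were 7.10 ± 1.16 and 7.02 ± 2.10 RPKM, and that of Col1a1 was 5.46 ± 0.873 RPKM. The order of Col14a1 and Col3a1 was not the same in every knockout library, and they did not differ beyond their spread either.

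Ratios between chains within a library do not depend on how libraries are scaled. The size of a ratio depends on the exon lengths used, but its relative difference between the groups does not. The 7 ratios were chosen after values were seen. The RPKM ratio of Col5a1 to Col5a2 was 0.934, 0.850 and 0.951 in controls and 2.25, 2.14 and 1.72 in knockouts. The order of the 2 chains was thus opposite in the groups. The ratio of Col1a1 to Col1a2 was 2.21, 2.16 and 1.79 in controls and 1.46, 1.26 and 1.38 in knockouts, and that of Col3a1 to Col1a1 1.05, 0.966 and 1.09 against 1.27, 1.39 and 1.61. In 6 of the 7 ratios the groups did not overlap, while Col6a1 to Col6a2 did (1.97, 2.27 and 1.99 against 2.25, 2.39 and 2.99). An exact permutation test, two-sided, gave p = 0.1 for each of the 6, the smallest that 3 libraries against 3 allow, and 0.117 adjusted over the 7 ratios.

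**Figure D4:**
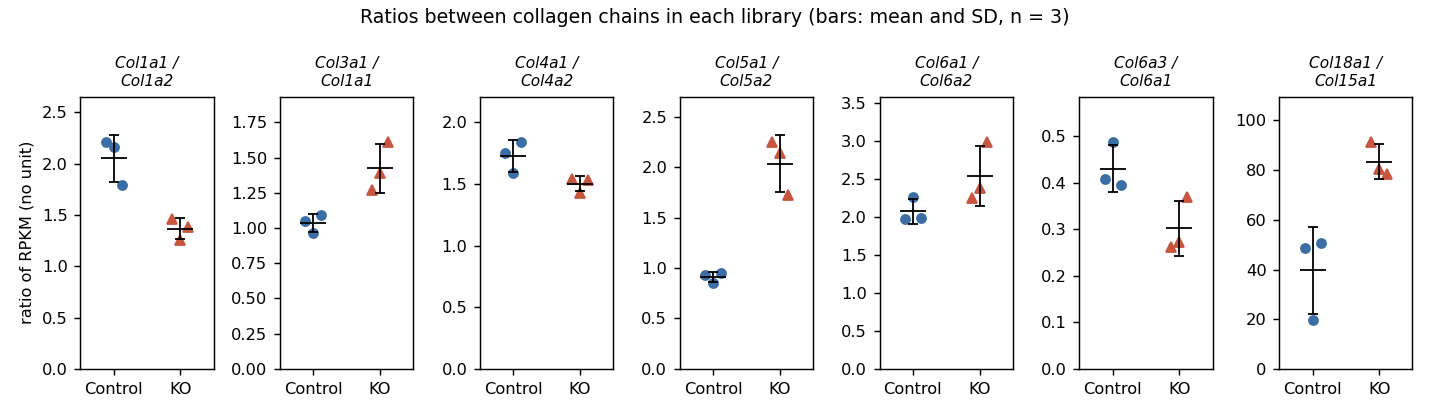
Ratios of RPKM between pairs of collagen chains (no unit) in control and Cyr61 KO libraries, with points for libraries and bars for mean and SD (n = 3). The Col5a1 to Col5a2 ratio has a mean of 0.912 in controls and 2.04 in knockouts, and the Col6a1 to Col6a2 ratio is the only one whose groups overlap.

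Among genes that make, crosslink, bind and degrade collagen, 8 were called, all lower, where 2.37% of all tested genes were called lower and 1.07% higher. The 4 lists of such genes were set with earlier results of these data known, so their counts are a description only. In propeptide removal and crosslinking 4 of 11 tested members fell. These were Pcolce, an enhancer of procollagen C-proteinase, by 1.59 (adjusted p = 0.0348), the crosslinking oxidases Loxl1 by 1.52 (0.0392) and Lox, which fell by 2.596 (0.0463), and the N-propeptide protease Adamts2 by 1.31 (0.0418). Lox was at 3.60, 9.67 and 3.28 CPM in controls and at 0.713, 0.568 and 1.43 CPM in knockouts. Degradation gave 2 of 6, the collagen-cleaving cathepsin Ctsk, which fell by 2.44 (0.0365), and the gelatinase Mmp2, which fell by 1.24 (0.0445). In folding and hydroxylation only 1 of 17 fell, near the share of all genes, the prolyl hydroxylase subunit P4ha1, by 1.19 (0.0352), and among receptors 1 of 8, the endocytic collagen receptor Mrc2, by 1.33 (0.0449). The collagen chaperone Serpinh1 did not pass, at -1.33 (0.0863). None of the 4 lists had a member called higher. Without Cyr61 KO replicate 1 or replicate 2, 0 members of the 4 lists were called, and without control replicate 1 or control replicate 2 only 1.

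Marker lists of cell types the liver can hold are given beside these genes, with 2.37% of all tested genes called lower and 1.07% higher. The marker lists, too, were set with earlier results of these data known. The 10 stellate cell and fibroblast markers summed to 505 to 761 CPM in controls and 222 to 435 CPM in knockouts, and 3 of the 10 fell (Cygb, Lum and Des). The other 7 did not pass. Of these, the quiescent stellate markers Lrat and Reln were at 0.09 and 0.05 and Rgs5 at -0.05. Dcn, Pdgfra, Pdgfrb and Hand2 were at -0.85, -0.875, -0.835 and -0.82. Smooth muscle markers summed to 32.0 to 115 CPM and 17.7 to 20.2 CPM (1 of 4 tested fell). Cholangiocyte markers summed to 240 to 1430 CPM and 82.4 to 163 CPM (0 of 8 passed). All 8 were lower on average, with a median log2 fold change of -2.899. In 6 of the 8 every knockout was below every control, where 17.9% of all tested genes were. Mesothelial markers summed to 24.1 to 114 CPM and 13.7 to 30.1 CPM (0 of 5). Krt19, in the cholangiocyte and mesothelial lists alike, was at 88.6 CPM in control 2, against 11.9 and 9.1 CPM in controls 1 and 3. Macrophage markers summed to 551 to 840 CPM and 153 to 420 CPM (2 of 6 fell, Trem2 and Lyz2). Lyz2 made up most of the control sums, at 546, 588 and 344 CPM, and was at 90.6, 53.2 and 180 CPM in knockouts. Ccr2, Cd68, Adgre1 and Clec4f did not pass, at -2.44, -1.41, -0.52 and 0.22. Endothelial markers summed to 130 to 226 CPM and 185 to 258 CPM (2 of 8 rose). Hepatocyte markers summed to 38000 to 95500 CPM and 103000 to 126000 CPM (1 of 6 rose). Of these lists no marker was at 0 in all libraries. In the cartilage list, at 7.58 to 11.7 and 12.1 to 22.95 CPM (0 of 2 tested passed), the aggrecan gene Acan was at 0 throughout. Most of that sum was Sox5, with means of 9.22 CPM in controls and 14.7 CPM in knockouts (edgeR adjusted p = 0.196). Control 2 had the highest control sum in every list except the hepatocyte list, where it had the lowest. The part of cell makeup in the collagen differences was not tested.

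The calls depended on single libraries, though the direction of the 7 called genes held in all 14 alternative settings. Without Cyr61 KO replicate 1 no collagen gene was called lower (0.0215% of all tested genes were), and none without replicate 2 (0.086%). Col1a1 then had adjusted p-values of 0.0795 and 0.104. Without replicate 3, 7 collagen genes of 32 tested were lower, against 4.35% of all. Without control replicates 1, 2 and 3, 3 of 32, 4 of 31 and 9 of 33 were lower, against 0.949%, 1.22% and 5.17%. Col1a1, Col1a2 and Col5a2 passed without any 1 of the controls, Col3a1 did not without control 1 (adjusted p = 0.0575), and Col6a2 and Col16a1 did not without control 1 or control 2. With library totals in place of TMM scaling, 0 collagen genes were called by edgeR, and the median of all genes moved from -0.03 to -0.30. Col1a1 was then at -2.62 (adjusted p = 0.0558), Col3a1 at -2.1, Col5a2 at -2.06 and Col1a2 at -2. Col6a2 was at -1.75, Col16a1 at -1.72 and Col13a1 at 1.28 (adjusted p = 0.124).

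**Figure D5:**
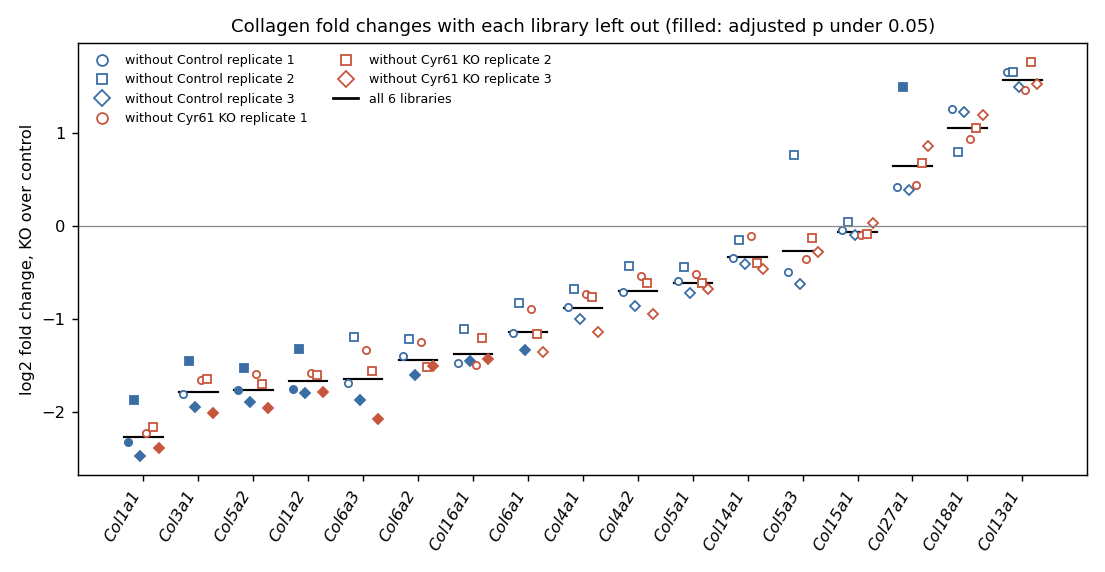
Log2 fold change (Cyr61 KO over control) of collagen genes with each library left out in turn; lines are the values with all 6 libraries, and filled symbols had an edgeR adjusted p under 0.05. Col1a1 stays below 0 throughout, and Col5a3 turns from -0.27 to 0.77 without control replicate 2.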

How the data were processed

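The authors deposited read counts for 24411 genes in each library. STAR 2.6.1a and Trimmomatic 0.38, with builds mm10 and hg38, are named per the submitters' processing notes. The annotation is not given in the sources used here. The deposited counts of the strand that fits the directional kit were used (opposite strand 0.928% to 1.35%). Unmapped, multiply mapped, ambiguous and intergenic reads stayed out of library sizes and tests. A deposited table of the whole series equals the unstranded counts and was not tested separately.

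Groups and replicate numbers came from the labels. Genes were tested with edgeR 4.0.16 (R 4.3.3), quasi-likelihood F test, two-sided, with a group term, TMM scaling and filterByExpr (minimum count 10, minimum total 15), and Benjamini-Hochberg adjustment over 13563 genes. Adjusted p below 0.05 was called. CPM and RPKM (over the union of exons) were computed from the counts. Alternatives were DESeq2 1.42.0, limma 3.58.1 voom with quality weights, other scalings and filters, unstranded counts, a replicate block and leaving out each library. The limit set by 0 counts covers counting error only. The test was also run on simulated counts. Changes there were balanced in direction and the libraries did not differ in makeup, so that run does not bear on the choice of scaling.

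The symbol rule for the collagen members, the classes and the pathway and marker lists were set with earlier results of these data known. Values per library are given for collagen genes called, those with a mean of at least 5 CPM and the highest of each class, and for up to 4 called members of other lists. Gene positions are those of GENCODE M21 (GRCm38, which mm10 represents), and promoter sequences those of RefSeq. All pairs of libraries differed by more than sampling noise.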

Additional observations from a re-analysis of the deposited data

How the results depend on the processing

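With DESeq2, voom with quality weights and library totals only, the collagen genes called lower numbered 11, 12 and 0 and those called higher 2, 3 and 0, against 6 and 1 in the report. All genes called were 2273 (1387 lower, 886 higher), 4483 (2409 and 2074) and 50 (23 and 27), against 467 (322 and 145). The collagen genes gained as lower were Col4a1, Col4a5, Col6a1, Col6a3 and Col8a1 with DESeq2. With voom they were Col4a1, Col4a2, Col4a5, Col5a1, Col6a1 and Col6a3. Gained as higher were Col18a1 with DESeq2, and Col18a1 and Col27a1 with voom. Library totals moved the median of all genes from -0.03 to -0.30. In the order degradation, receptors, folding and hydroxylation, the 3 settings called 5, 3 and 5 genes, then 5, 4 and 7, then 0, 0 and 0, and library totals also called 0 in propeptide removal and crosslinking. Without a low-count filter 944 genes were called (666 lower, 278 higher) and 2 receptors. The FACIT median was -0.31 with voom and -1.06 with library totals, and the beaded filament median -0.88 with voom. The cause of these differences was not tested.

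Leaving out each library in turn gave 0 to 9 collagen genes lower and 0 to 1 higher. All genes called ranged from 7 to 878, those lower from 3 to 720 and those higher from 4 to 169. Folding and hydroxylation ranged from 0 to 2, propeptide removal and crosslinking from 0 to 4, receptors from 0 to 3 and degradation from 0 to 4. The FACIT median ranged from -1.02 to -0.26, the latter without control replicate 2. An arm left with 2 libraries rests on a spread estimated over both groups.

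Same-numbered libraries did not deviate together (correlations of -0.0963, -0.226 and -0.442), and none correlated best with its own number. Pairing by number was thus not seen, though deviations within groups of 3 libraries cannot exclude it. With the replicate block 633 genes were called, among them 7 collagen genes lower and 0 higher, 6 of them shared with the report (Col6a3 gained, Col13a1 lost), and 2 receptors. The 10 genes left untested with any counts had at most 55 in a library, which limits what could be detected.

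None of the 7 called collagen genes changed direction in any setting. Among those not called, 7 below 0 in the report turned positive in at least 1 setting. With each library left out in turn, Col7a1 ranged from -1.01 to 1.14, Col5a3 from -0.628 to 0.769, Col11a2 from -0.776 to 0.442, Col20a1 from -1.26 to 0.109 and Col15a1 from -0.0986 to 0.0417, each highest without control replicate 2. Col28a1 ranged from -1.3 to 0.801, highest without control replicate 3, and Col6a6 from -0.215 to 0.27, highest without Cyr61 KO replicate 3. With voom Col5a3, Col6a6, Col28a1 and Col15a1 were at 0.458, 0.323, 0.0261 and 0.0237. Without a filter Col6a6 was at 0.0113, and with the replicate block Col5a3 was at 0.109. None of the positive values passed the test, and the cause was not tested.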
